A study of Rattus norvegicus with 4 samples.

Results

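The interferon response and class I presentation genes are those that a cell switches on after interferon signalling, together with those that cut peptides, load them on class I molecules and carry them to the cell surface. The set was listed by name: 35 genes, with the older array names of Irf9 (Isgf3g) and Isg15 (G1p2) taken as the same genes. Of these, 29 genes had a probe of their name, with 42 probes, out of 35658 names and 41012 probes on the array. They were separated by role into 6 regulators and sensors of viral RNA (of 7 listed), 13 interferon-induced effectors (of 17 listed) and 10 genes of class I processing and presentation (of 11 listed). The values below are of the 27 genes that passed the filter on dim probes. The effector genes Mx2 and Oas1b did not pass it, and 6 listed genes (Ifih1, Ifi44l, Oas1a, Oasl, Rsad2 and RT1-A1) had no probe of their own name.

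Olfactory ensheathing cells, the glia that wrap the axons of smell neurons, were cultured from olfactory mucosa (the lining of the nose) and from olfactory bulb of male Fischer rats, with 1 culture protocol for both tissues. Each of 4 arrays held 1 biological replicate as a pair, with mucosa cDNA labelled with Cy5 and bulb cDNA labelled with Cy3. The labels name no treatment, and the age of the animals is not given in the sources used here. Mucosa cells carried Cy5 on all of them, and tissue therefore cannot be told apart from dye.

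Type I interferons bind a receptor whose kinases activate transcription factors, among them Stat2, which joins Irf9 in a complex that binds the interferon-stimulated response element in target promoters. Interferon gamma acts in part through Irf1, and it also induces class II genes. The targets include antiviral effectors, and also the immunoproteasome, the peptide transporter and the class I molecules, which display peptides of the cell's own proteins to T cells. Class I genes are made at a basal level by most cells, whereas many antiviral effectors are made at a low level until interferon arrives.

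On the arrays 89.8%, 91.1%, 82.8% and 86.3% of spots were well above background in the mucosa channel of replicates 1 to 4, and 88.4% to 89.5% in the bulb channel. All 11 measured markers of ensheathing and Schwann glia (of 12 listed) were well above background on every array in both channels. Of these, 8 were lower in mucosa cells and 0 higher, among them Fabp7 (log2 ratio -2.94 ± 0.49, SD, n = 4), Cdh19 (-2.44 ± 0.98) and Sox10 (-1.87 ± 0.55), and the signal summed over the list was 16976 to 19759 in mucosa cells and 38756 to 47936 in bulb cells. Of all names tested, 3.38% were lower and 3.23% higher. Precision is limited by the number of arrays. In such bulk samples, fewer cells of a type and less RNA per cell cannot be told apart.

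One interferon-induced effector, Gbp2, was lower in mucosa cells, and the other 26 tested members did not pass the test. By limma with Benjamini-Hochberg adjustment over 31897 gene names, at a threshold of 0.05, 1 of 27 members was called, where 6.62% of all names were. It was among the 11 effectors (1 lower and 0 higher), where 3.38% of names were lower and 3.23% higher. Of 6 regulators and sensors and of 10 class I genes, 0 passed in either direction, while 3 of each had an unadjusted p under 0.05 (9 of all 27 members, and 7582 of all names). The median log2 ratio, mucosa over bulb, was -0.50 over the 11 effectors, -0.35 over the 6 regulators and sensors and -0.20 over the 10 class I genes, beside 0.012 over all names. Of the 27 members 21 had a mean ratio below 0, as did 49.1% of all names, and 9 had it below 0 on all 4 arrays, as did 15.7% of all names. The difference between the lists was not tested. The class I median was 0.025 with median centring in place of loess and 0.025 without replicate 3, so its sign is not settled.

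**Figure D1:**
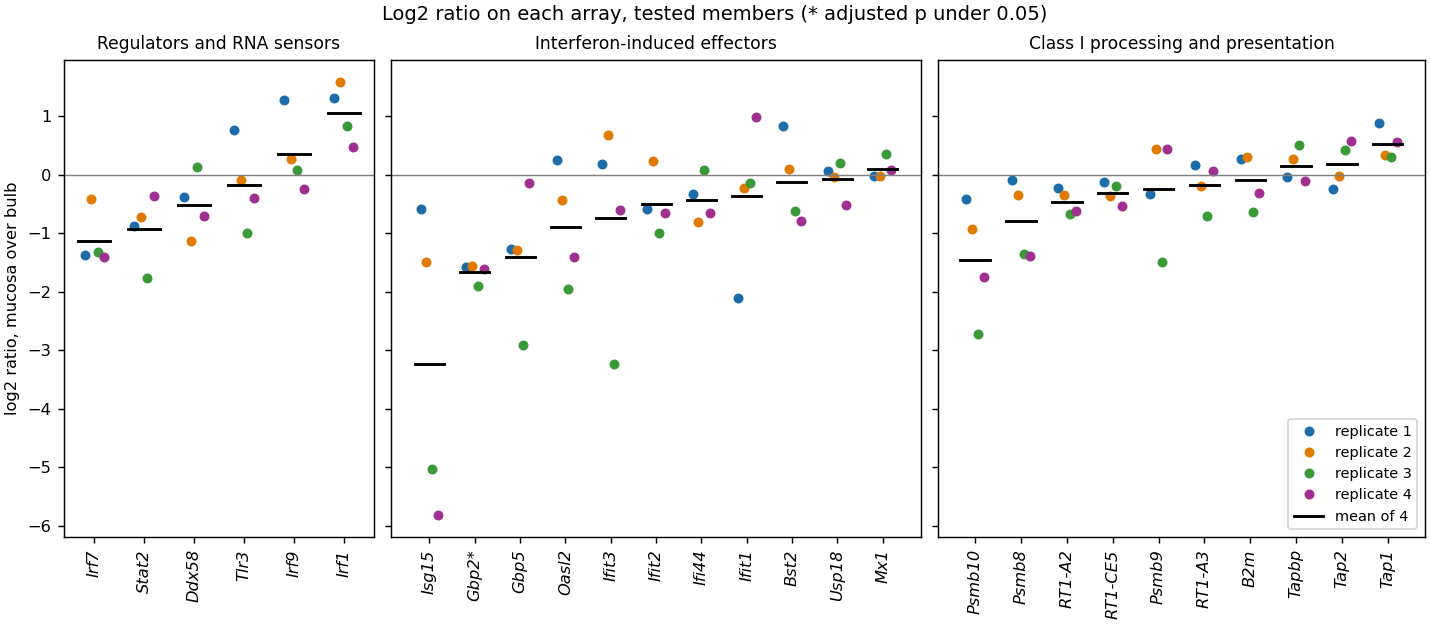
Log2 ratio, mucosa over bulb, of each tested member on each of the 4 arrays (coloured points, 1 per replicate; black bars, mean of 4), in panels for 6 regulators and RNA sensors, 11 effectors and 10 class I genes, ordered by mean. Gbp2, the member with an asterisk, lies between -1.91 and -1.57 on all arrays, whereas Isg15 runs from -5.82 to -0.58.

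Shown here are the probes of 2 effectors, 2 regulators and 1 class I gene with ratios past 1 on the log2 scale. The effector Gbp5 (-1.40), also past 1, is left out. The probes are shown because each value is the signal of this 1 stretch of 60 bases. By the rn4 build that the file headers name, they lie at chr2:240541001-240541060 (plus strand) for Gbp2, chr5:173034674-173034733 (minus) for Isg15, chr10:39224461-39224695 (plus, a span of 235 bases that the probe does not cover in one piece) for Irf1, chr1:201456889-201456948 (minus) for Irf7 and chr19:35777711-35777770 (minus) for Psmb10. Whether a probe lies in a coding exon or a UTR was not analysed here.
Gbp2: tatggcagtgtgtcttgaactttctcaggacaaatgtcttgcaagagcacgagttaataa
Isg15: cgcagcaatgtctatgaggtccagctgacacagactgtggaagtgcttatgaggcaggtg
Irf1: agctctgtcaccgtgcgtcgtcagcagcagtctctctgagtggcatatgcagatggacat
Irf7: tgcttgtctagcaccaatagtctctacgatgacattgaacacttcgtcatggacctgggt
Psmb10: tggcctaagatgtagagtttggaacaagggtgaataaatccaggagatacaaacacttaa

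The promoters of the members were searched for the letters of the interferon-stimulated response element, GAAANNGAAA on either strand (TTTCNNTTTC on the other), in the RefSeq promoter table of GRCr8, which holds 250 bases before to 50 after each gene's start. Of 33469 promoters, 1312 (3.92%) held them. Among the listed genes with a promoter in the table, 10 of 12 effectors held the letters, as did 2 of 6 regulators and sensors (Irf7 and Ifih1) and 6 of 11 class I genes. The 6 were Tap1, Tap2, Tapbp, Psmb8, Psmb10 and B2m, and those without the letters were Psmb9 and the 4 class I heavy chain genes. A match describes the letters and is no measure of binding. The stretches below, 5′ to 3′ on the strand of the gene with the motif letters in capitals, are shown for 2 effectors and 3 class I genes so that the shared letters can be seen beside ratios that differ. They are at chr2:234005671-234005726 (plus) for Gbp2, chr1:241527257-241527316 (plus) for Ifit3, chr19:50743293-50743334 (minus) for Psmb10, chr20:4668630-4668689 (minus) for Tap1 and chr3:129549155-129549214 (plus) for B2m, all of GRCr8.
Gbp2 promoter: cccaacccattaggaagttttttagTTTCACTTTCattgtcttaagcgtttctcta
Ifit3 promoter: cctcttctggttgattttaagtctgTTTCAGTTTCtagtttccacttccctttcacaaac
Psmb10 promoter: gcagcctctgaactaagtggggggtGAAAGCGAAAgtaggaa
Tap1 promoter: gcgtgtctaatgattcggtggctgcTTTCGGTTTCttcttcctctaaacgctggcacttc
B2m promoter: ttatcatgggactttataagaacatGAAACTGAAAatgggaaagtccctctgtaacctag
The motif begins 31 bases before the start in Gbp2, 44 in Ifit3, 17 in Psmb10 (which holds a further match 73 bases before the start), 121 in Tap1 and 150 in B2m.

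**Figure D2:**
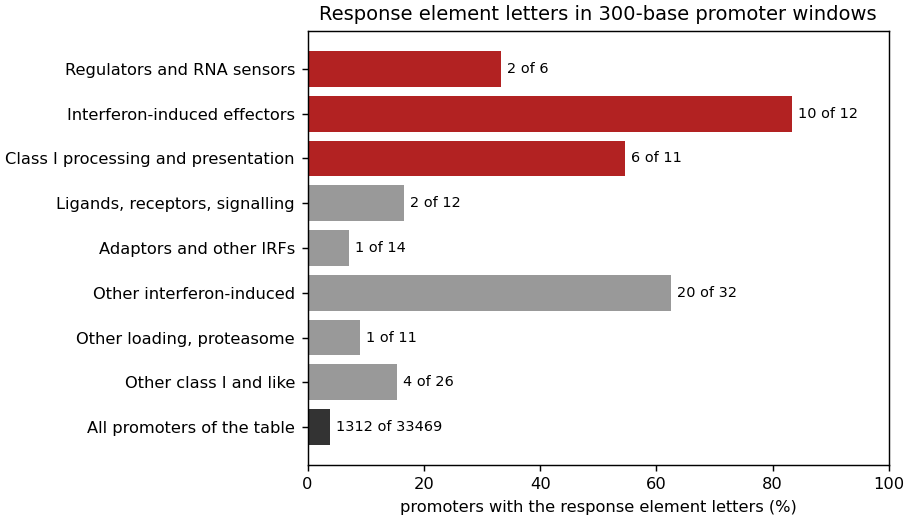
Share of promoters with the response element letters (horizontal axis, percent; counts beside the bars) for the 3 member lists (red), 5 lists of other genes of the pathway (grey) and all promoters of the table (black). The bar of the effectors stands for 10 of 12 promoters and that of all promoters for 1312 of 33469.

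Among the regulators, Irf7 and Irf1 had ratios of opposite sign, and neither passed. Irf7, the factor that amplifies type I interferon production, had log2 normalised signals of 7.16, 7.85, 7.33 and 6.42 in mucosa cells of replicates 1 to 4, against 8.54, 8.27, 8.65 and 7.83 in bulb cells. Within each pair the mucosa value was the lower one, although the mucosa value of replicate 2 lay above the bulb value of replicate 4. The log2 ratios were -1.38, -0.42, -1.32 and -1.41, with a mean of -1.13 ± 0.47 (SD, n = 4; limma adjusted p = 0.0512). The Irf7 probe stood well above background on 4 bulb arrays but only 3 mucosa arrays. Its mucosa signal in replicate 4 (6.42) was dim, so the ratio of -1.41 rests on a dim value. The lowest mucosa signal well above background on that array was 6.27. With the strict filter on dim probes Irf7 was not tested, which leaves it 21 alternatives. Irf7 passed without background subtraction (limma adjusted p = 0.0488) and with the mean over the probes of each gene (0.0473). Irf7 has 1 probe, so the latter left its ratio at -1.13 and is no other reading of the gene. Irf1, a factor induced by interferon gamma, had signals of 12.10, 12.08, 11.62 and 11.74 in mucosa cells, against 10.79, 10.49, 10.79 and 11.26 in bulb cells. All 4 mucosa values lay above all 4 bulb values, and the mean log2 ratio was 1.05 ± 0.50 (SD, n = 4; 95% interval 0.44 to 1.67; limma adjusted p = 0.0654). Irf1 passed with median centring (1.30, adjusted p = 0.0328) and with array weights (1.23, 0.0311).

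Stat2, a transcription factor of the type I response, had log2 ratios of -0.88, -0.72, -1.76 and -0.36. Its signals did not overlap between the tissues, at 9.08 to 9.60 in mucosa cells and 9.96 to 10.84 in bulb cells, and the mean ratio was -0.93 ± 0.60 (SD, n = 4; limma adjusted p = 0.111). Irf9, which binds DNA in the complex with Stat2, had a mean ratio of 0.35 ± 0.65 (limma adjusted p = 0.509). The 2 RNA sensors overlapped between the tissues. Tlr3, the endosomal receptor of double-stranded RNA, had -0.18 ± 0.73 (limma adjusted p = 0.764). Ddx58, the cytosolic sensor RIG-I, had -0.52 ± 0.54 at the brighter probe and -0.77 ± 0.99 at the other (limma adjusted p = 0.291 and, over single probes, 0.289).

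Gbp2, a guanylate-binding GTPase of cell-autonomous defence, was 3.17-fold lower in mucosa cells. Its log2 normalised signals were 8.89, 8.92, 8.61 and 9.37 in mucosa cells, against 10.47, 10.49, 10.52 and 10.98 in bulb cells. Every mucosa value lay below every bulb value, which was so in either direction for 7 of the 27 tested members and for 20.8% of all names. The log2 ratios were -1.57, -1.57, -1.91 and -1.61, with a mean of -1.66 ± 0.16 (SD, n = 4; 95% interval -2.14 to -1.19; limma adjusted p = 0.00840). Gbp2 had the smallest SD over arrays of the 27 tested members. The call ended without replicate 2 (-1.70, limma adjusted p = 0.0523) and held in the other 21 alternatives. Gbp5, a guanylate-binding protein of the same family, had ratios of -1.27, -1.29, -2.92 and -0.13 and a mean of -1.40 ± 1.15 (SD, n = 4; limma adjusted p = 0.121), and its signals overlapped through replicate 4.

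Isg15, the ubiquitin-like modifier that is among the strongest interferon targets, had the largest mean ratio of the members and did not pass. Its signals were 11.50, 10.60, 8.56 and 7.78 in mucosa cells of replicates 1 to 4, against 12.08, 12.10, 13.60 and 13.60 in bulb cells. The tissues did not overlap, and replicates 3 and 4 were both lowest in mucosa cells and highest in bulb cells. The log2 ratios were -0.58, -1.49, -5.04 and -5.82, with a mean of -3.23 ± 2.58 (SD, n = 4; 95% interval -5.42 to -1.05; limma adjusted p = 0.0943). The pairs thus differed among themselves by up to 5.23 on the log2 scale. Usp18, the protease that removes Isg15 from proteins and damps interferon signalling, had -0.071 ± 0.31 (limma adjusted p = 0.866), and -0.61 ± 0.55 at its other probe.

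**Figure D3:**
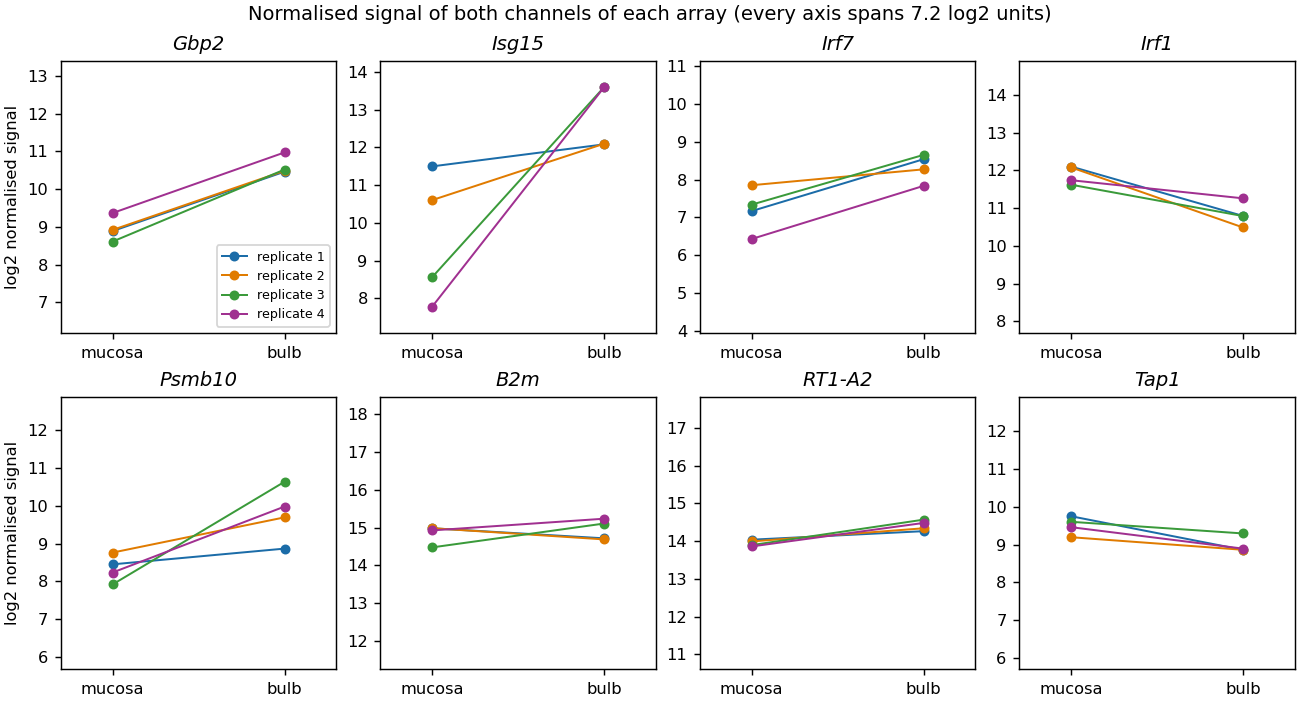
Log2 normalised signal in mucosa cells (left of each panel) and bulb cells (right) for 8 members, with lines joining the 2 channels of an array; signals of different panels are of different probes and are not comparable in height. The lines of Gbp2 run parallel, those of Isg15 fan out in replicates 3 and 4, those of Irf1 and Tap1 slope the other way, and those of B2m cross.

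The tetratricopeptide effectors, which bind viral RNA or translation factors, had SDs over the 4 pairs that were larger than their mean ratios, except at the dimmer Ifit2 probe. Ifit1 had ratios of -2.11, -0.22, -0.14 and 0.98 (mean -0.37 ± 1.28, SD, n = 4; limma adjusted p = 0.674), and its mean was 0.21 without replicate 1. Its 2 other probes lie at a second place on the chromosome, chr1:238580681-238580740 and chr1:238580038-238580097 on the minus strand against chr1:238610083-238610142 on the plus strand, and had -0.65 ± 0.71 and -0.81 ± 1.00. In mucosa cells they stood well above background on 1 of 4 arrays, against 3 of 4 in bulb cells. Ifit3 had 0.18, 0.68, -3.23 and -0.60 (mean -0.74 ± 1.74; limma adjusted p = 0.511), and 0.089 without replicate 3. Ifit2 had -0.50 ± 0.52 (limma adjusted p = 0.303) and -1.07 ± 0.92 at its other probe.

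Among the other antiviral effectors none passed. Oasl2, related to the enzymes that make the activator of ribonuclease L, had ratios of 0.26, -0.44, -1.96 and -1.41 (mean -0.89 ± 0.99, SD, n = 4; limma adjusted p = 0.231). Mx1, the dynamin-like GTPase that blocks influenza virus in rodents, had the next smallest SD after Gbp2, at 0.098 ± 0.18 (limma adjusted p = 0.798; 95% interval -0.39 to 0.58). Bst2, the tetherin that holds budding virus at the cell surface, had -0.12 ± 0.74 (limma adjusted p = 0.848), and 0.13 with median centring. Ifi44 had -0.43 ± 0.39 (limma adjusted p = 0.318).

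Ifi44 also shows how closely 1 transcript is read by overlapping probes. Its pair on the minus strand of chromosome 2, at chr2:250046364-250046423 and chr2:250046371-250046430, shares a run of 50 bases, given in capitals.
Ifi44 probe 1: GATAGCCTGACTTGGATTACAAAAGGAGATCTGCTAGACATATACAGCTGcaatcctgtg
Ifi44 probe 2: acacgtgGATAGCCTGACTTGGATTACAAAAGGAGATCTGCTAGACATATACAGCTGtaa
Probe 1 had ratios of -0.40, -0.73, 0.015 and -0.59, and probe 2 had -0.33, -0.80, 0.074 and -0.66. Another probe, at chr2:250039283-250039342, had -1.58, -1.29, 0.82 and -0.20. The overlapping probes kept the same order of arrays, and the other probe kept array 3 as the highest. Of the 9 members with more than 1 tested probe, 9 had mean ratios of 1 sign at all their probes, all below 0, with differences between probes of 0.13 to 0.57. The same share over all names with more than 1 probe was not computed. Not all of these probes are separate readings of a gene. Besides the Ifi44 pair, 2 B2m probes share 41 bases, and 2 Ifit1 probes lie at a second place. Of the 40 tested member probes, 34 had a mean ratio below 0. Over all names, each counted by 1 probe, the share was 49.1%. The share over all 36749 tested probes was not computed, and their median log2 ratio was -0.0039. Genes with more than 1 probe count more than once among the 40. Of these probes 1, that of Gbp2, passed by itself, where 6.54% of all probes did.

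Mx2 and Oas1b were too dim to test. Mx2 was not well above background on any mucosa array and was on 2 of 4 bulb arrays. Its log2 ratios were -0.27, -0.32, -1.34 and -1.08. Oas1b was well above background on 1 mucosa array, where its log2 ratio was 1.58, and on no bulb array. Its other ratios were -0.16, -0.14 and -0.060. Neither gene has a test, and with signals this dim no least fold is given.

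In class I processing, the immunoproteasome subunit Psmb10 had the lowest ratio and the transporter subunit Tap1 the highest, and neither passed. Psmb10, the catalytic subunit that takes the place of Psmb7, had signals of 8.45, 8.77, 7.92 and 8.24 in mucosa cells, against 8.87, 9.70, 10.64 and 9.99 in bulb cells. Every mucosa value was below every bulb value. The log2 ratios were -0.42, -0.93, -2.72 and -1.75, with a mean of -1.45 ± 1.01 (SD, n = 4; limma adjusted p = 0.0870). Psmb8, which takes the place of Psmb5, had -0.79 ± 0.68 (limma adjusted p = 0.180) and lay below 0 on all 4 arrays. Psmb9, which takes the place of Psmb6, had -0.23 ± 0.92 (limma adjusted p = 0.731), and 0.19 without replicate 3. The 3 immunoproteasome subunits had a median of -0.79. Their constitutive counterparts Psmb5, Psmb6 and Psmb7 had a median of 0.070, at 0.070 ± 0.24, 0.48 ± 0.41 and -0.56 ± 0.54, and none passed either.

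Tap1 and Tap2 form the transporter that carries peptides into the endoplasmic reticulum. Tap1 had signals of 9.75, 9.20, 9.60 and 9.46 in mucosa cells, against 8.86, 8.86, 9.30 and 8.89 in bulb cells. The mucosa value was the higher one in each pair, as for 17.8% of all names, and the mean log2 ratio was 0.53 ± 0.27 (SD, n = 4; limma adjusted p = 0.200). Tap2 had 0.19 ± 0.39 (limma adjusted p = 0.662). Tapbp, the tapasin that holds class I molecules to the transporter, had 0.16 ± 0.29 (limma adjusted p = 0.690).

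B2m, the light chain that every classical class I molecule needs, had signals of 14.98, 14.99, 14.48 and 14.93 in mucosa cells, against 14.72, 14.69, 15.11 and 15.24 in bulb cells. Replicates 1 and 2 were higher in mucosa cells and replicates 3 and 4 lower. The mean log2 ratio was -0.095 ± 0.45 (SD, n = 4; limma adjusted p = 0.843), with a 95% interval for the fold, mucosa over bulb, of 0.621 to 1.41. It was 0.34 with median centring, 0.034 with array weights and 0.085 without replicate 3, so its sign is not settled. The other 3 B2m probes had -0.12 ± 0.49 (a probe with 10 spots on each array), -0.43 ± 0.53 and -0.60 ± 0.22.

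The class I heavy chains, which hold the peptide, are called RT1 genes in the rat and resemble each other closely, so a probe of one may also bind transcripts of another. RT1-A2 had signals of 14.04, 13.99, 13.89 and 13.86 in mucosa cells, against 14.26, 14.34, 14.57 and 14.48 in bulb cells. No value overlapped, and the mean log2 ratio was -0.47 ± 0.22 (SD, n = 4; limma adjusted p = 0.228), with a 95% interval for the fold of 0.514 to 1.02. RT1-CE5 had -0.12, -0.36, -0.19 and -0.54 at its brighter probe (mean -0.30 ± 0.19; limma adjusted p = 0.405), also without overlap of the signals, and RT1-A3 had -0.17 ± 0.39 (limma adjusted p = 0.698; 0.085 with median centring and 0.012 without replicate 3). This RT1-CE5 probe lists accessions of 3 genes, RT1-CE5, RT1-CE12 and RT1-CE13, so its value is not of RT1-CE5 alone. The other RT1-CE5 probe lists accessions of RT1-CE5 only and had -0.18, -0.23, -0.51 and -1.45 (mean -0.59 ± 0.59). Both RT1-A2 probes list accessions of 1 gene. They are shown with the 19 bases they share in capitals, at chr20:5024064-5024217 and chr20:5024199-5024258 (plus strand).
RT1-A2 probe 1: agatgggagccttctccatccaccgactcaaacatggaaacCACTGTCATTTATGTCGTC
RT1-A2 probe 2: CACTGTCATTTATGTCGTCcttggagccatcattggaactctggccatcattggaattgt
Probe 2 had a mean ratio of -0.32 ± 0.20, against -0.47 ± 0.22 for probe 1. No pair of probes from different RT1 members had a run of more than 7 bases in common. The comparison is of probes with each other and not with transcripts of other genes, so it cannot show what a probe binds.

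**Figure D4:**
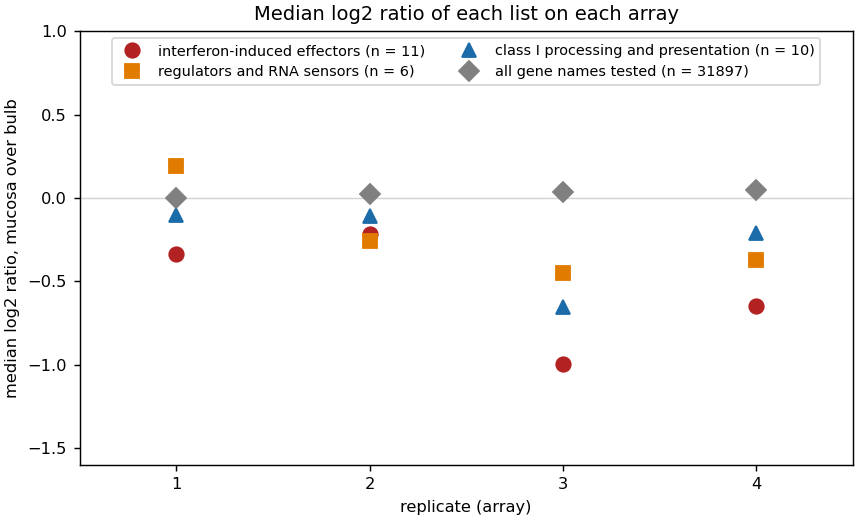
Median log2 ratio, mucosa over bulb, on each array for the 3 member lists and for all 31897 gene names. The medians of the effectors are -0.33, -0.22, -0.99 and -0.65 on arrays 1 to 4 and those of class I -0.10, -0.11, -0.65 and -0.21, while those of all names lie between -0.0030 and 0.047.

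The effectors and the immunoproteasome subunits had lower medians on arrays 3 and 4 than on arrays 1 and 2. The effector median was -0.33 and -0.22 on arrays 1 and 2 and -0.99 and -0.65 on arrays 3 and 4, and the immunoproteasome median was -0.33 and -0.34 against -1.50 and -1.39. Single genes departed from this. Psmb9 had -0.33, 0.45, -1.50 and 0.44 on arrays 1 to 4, and Ifit1 had -2.11, -0.22, -0.14 and 0.98. The median of 13 macrophage and microglia markers was also lower on arrays 3 and 4, at 0.56 and 0.40 against -1.28 and -0.75. So were the median of 10 fibroblast markers, at 1.58 and 1.53 against 0.61 and 0.79, and that of the 6 regulators and sensors, at 0.19 and -0.26 against -0.45 and -0.37. Interferon-induced genes outside the members (27 tested) had -0.15 and -0.15 against -0.75 and -0.69. The 11 ensheathing and Schwann glia markers had no such fall, at -1.63 and -1.34 against -1.21 and -1.38. Nor had 21 other class I and class I-like genes, at -0.34 and -0.33 against -0.080 and 0.00069. Of the 13 macrophage and microglia markers, 4, 4, 9 and 8 were below 0 on arrays 1 to 4. Emr1, a surface antigen of macrophages, had -0.58, -0.91, -4.39 and -3.83 (limma adjusted p = 0.101). Laptm5 had 0.44, 0.97, 0.48 and 0.87, and C1qb had -0.29, 0.39, 0.22 and 0.57, without such a fall. Of the 13, 1 was higher in mucosa cells (the lysozyme gene Lyz, 2.87 ± 1.73, SD, n = 4) and 1 lower (the scavenger receptor gene Cd163, -1.58 ± 0.44). Of all names, 3.23% were higher and 3.38% lower. Their summed signal was 60735 to 102616 in mucosa cells and 31583 to 67558 in bulb cells, and 12 of 13 were well above background on all mucosa arrays and 13 on all bulb arrays, so these markers were not near 0 in either tissue. The share of mucosa spots well above background was also lower on arrays 3 and 4, as given above. The part of any of these in the ratios of the members was not tested.

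Markers of antigen-presenting cells, mostly class II genes, all had mean ratios above 0. Of 7 measured (of 11 listed) 5 were higher in mucosa cells and 0 lower, led by RT1-Da (3.27 ± 1.02, SD, n = 4), Cd74 (3.10 ± 0.82) and RT1-Bb (2.81 ± 0.65), and their summed signal was 11257 to 19357 in mucosa cells and 4168 to 5198 in bulb cells. Of all names, 3.23% were higher and 3.38% lower. The median of these 7 markers was 2.09, 2.67, 2.18 and 3.11 on arrays 1 to 4. Below 0 were only RT1-Db1 on array 1 (-0.19) and Cd80 on array 2 (-0.51). A link between these markers and the effector ratios was not tested. Of 10 tested markers of T and NK cells 0 passed (and 0 had an unadjusted p under 0.05), with a median of 0.20, led by Prf1 (0.39 ± 0.69), Nkg7 (0.37 ± 0.54) and Cd8a (0.26 ± 0.47), and their summed signal was 4617 to 7046 in mucosa cells and 4816 to 5356 in bulb cells. Of 10 fibroblast markers 5 were higher and 2 lower, led by Fbln1 (-4.15 ± 0.62), Thy1 (3.90 ± 0.71) and Col1a2 (2.27 ± 0.45), with summed signals of 277457 to 322230 in mucosa cells and 110653 to 162475 in bulb cells. Of 7 endothelial markers 2 were higher and 1 lower, led by Eng (2.05 ± 0.49), Cdh5 (-1.57 ± 0.67) and Tek (1.51 ± 0.79), and of 3 epithelial markers 1 was lower (Cdh1, -2.40 ± 0.37), beside Tacstd1 (0.72 ± 0.68) and Krt14 (0.35 ± 0.56).

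Upstream of the effectors, no ligand, receptor or signalling gene passed. Of 12 tested (of 16 listed) 0 were called, where 6.62% of all 31897 names were, and the median was 0.18. An unadjusted limma p under 0.05 was found for 1 of the 12, beside 7582 of all names. With that share called, 0 calls in a list this short do not show that the tissues are equal. The interferon genes themselves were at 0.41 ± 0.34 (Ifna1), 0.035 ± 0.28 (Ifnb1) and 0.14 ± 0.25 (Ifng), with limma adjusted p of 0.319, 0.934 and 0.724. The receptor chains Ifnar1, Ifngr1 and Ifngr2 had 0.36 ± 0.67, 0.091 ± 0.49 and 0.41 ± 0.34. The largest ratio was that of Socs3, a feedback inhibitor, at -0.94 ± 0.60 (limma adjusted p = 0.111). Of 13 sensing adaptors and other interferon regulatory factors 0 passed (3 had an unadjusted p under 0.05), with a median of 0.10, and the same limit holds for them.

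Other interferon-induced genes, listed outside the members, were mostly lower where they passed. Of 27 tested (of 40 listed) 5 were lower and 1 higher, where 3.38% of all names were lower and 3.23% higher. The median was -0.36. Rtp4, an interferon-induced chaperone of receptor transport, had log2 ratios of -1.68, -1.95, -3.01 and -3.30 (mean -2.49 ± 0.79, SD, n = 4; limma adjusted p = 0.0118). Gbp4, of the same family as Gbp2 and Gbp5, had -1.79, -1.73, -3.76 and -1.98 (mean -2.32 ± 0.97; limma adjusted p = 0.0222), a call lost without replicate 1, 2 or 4 and with processed signals (0.0530). Cxcl10, a chemokine that draws T cells, had -1.62, -0.75, -1.53 and -1.76 (mean -1.42 ± 0.45; limma adjusted p = 0.0256), a call lost without any 1 array (highest adjusted p = 0.102). Isg20, an exonuclease that degrades viral RNA, was the gene that was higher, with 1.68, 2.13, 1.51 and 2.31 (mean 1.91 ± 0.37; limma adjusted p = 0.00864), a call lost without replicate 2 (0.0557). In each of these 4 genes the signals of the tissues did not overlap, as in 9 of the 27 tested and 20.8% of all names. The other calls, named after their values were seen, were the immunity-related GTPase gene Igtp (-1.35 ± 0.51; limma adjusted p = 0.0339) and Parp9 (-0.94 ± 0.18; limma adjusted p = 0.0463), both lost without any 1 array. Igtp was also lost with processed signals (-2.57, limma adjusted p = 0.0579) and with the deposited ratio (-2.55, 0.0579). Its mucosa signals were dim, at 6.20 to 6.82, and well above background on 3 of 4 arrays. Parp9 passed in only 10 of its 22 alternatives, with ratios of -1.01 to -0.73 and adjusted p up to 0.175. The related chemokines Cxcl9 and Cxcl11 had 0.32 ± 0.53 and 0.41 ± 0.73 and did not pass.

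**Figure D5:**
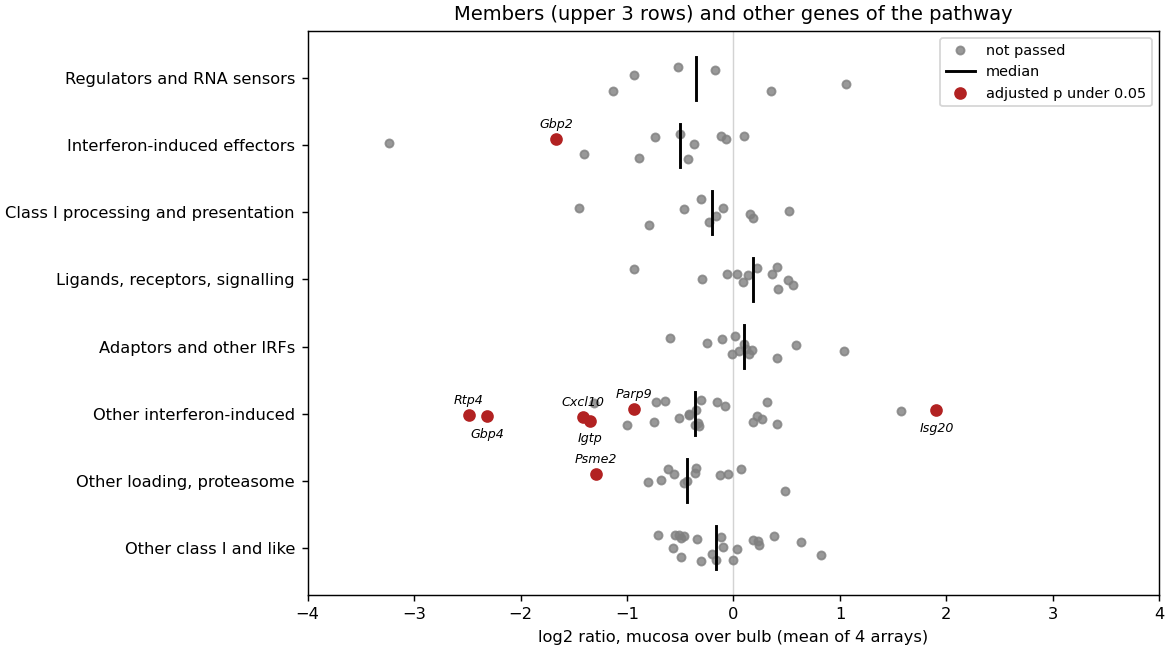
Mean log2 ratio, mucosa over bulb, of each tested gene (points) in the 3 member lists (upper rows) and in 5 lists of other genes of the pathway, with the median of each list (black bars); vertical scatter within a row has no meaning. Genes with a limma adjusted p under 0.05 are red and named: 1 in the effectors, 6 in the other interferon-induced genes and 1 in the loading and proteasome genes.

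Of 13 other genes of peptide loading and the proteasome (of 16 listed) 1 was lower, where 3.38% of all names were. The median was -0.43. The lower gene was Psme2, a subunit of the interferon-inducible proteasome activator, with -0.85, -1.08, -1.47 and -1.77 (mean -1.29 ± 0.41, SD, n = 4, limma adjusted p = 0.0302). Its call was lost without any 1 array (highest adjusted p = 0.104), with median centring (0.0598) and with the deposited ratio (0.0625). Its partner Psme1 had 1.31, -0.37, -0.53 and -2.27 (mean -0.47 ± 1.46; limma adjusted p = 0.635). Of 21 other class I and class I-like genes (of 34 listed) 0 passed, where 6.62% of all names did, with a median of -0.16. An unadjusted limma p under 0.05 was found for 7 of the 21, beside 7582 of all 31897 names. The largest ratio was that of RT1-M2, a nonclassical class I gene, at 0.82 ± 0.62 (limma adjusted p = 0.151).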

How the data were processed

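Per the labels' protocols, cDNA made from mRNA was amplified by PCR before 250 ng per channel were labelled; PCR can alter transcript ratios. Per the file headers, spots and their surroundings were deposited as linear intensity by Agilent Feature Extraction 10.5.1.1 (the submitters' processing notes name 9.1), and the deposited ratio is a log10 of Cy5 over Cy3, which the deposited value table repeats exactly (same scale, centring and direction).

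Signals were corrected here with normexp (offset 50) and loess within arrays in limma 3.58.1 (R 4.3.3). Control spots got weight 0, flagged outliers were dropped and the spots of each probe were averaged. Testing required a probe to exceed background (at least 0.5 of its spots) on 3 or more arrays of 1 channel, and the brightest probe stood for a gene name. The mean log2 ratio, computed from the deposited intensities, was tested against 0 with lmFit and eBayes (6.36 degrees of freedom), Benjamini-Hochberg adjusted over 31897 names. Levels are normalised log2 signals of each channel after Aquantile. Pairing comes from the design text: the channels of an array are 1 pair. All arrays were on 1 slide with 1 scan time. The fit was tested on simulated ratios. Python 3.11.15, pandas 2.3.3, numpy 2.4.6, scipy 1.17.1 and matplotlib 3.10.9 made tables and figures.

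Members and lists were chosen with earlier results of these data known. Named were all members, up to 4 called genes per pathway list (or the 1 of largest ratio), and up to 3 of each marker list. Some results this rule names are not reported here. Names are those of the array design; GRCr8 tables of RefSeq gave accessions and promoters. The alternatives, 22 in all, covered background, normalization, filter, probes, variance, weights, pairing and single replicates left out; updated names were added after seeing the data.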

Additional observations from a re-analysis of the deposited data

Results flagged for a closer look

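Of the 27 tested members, 2 had 1 array far from the other 3, measured by the gap to the nearest array as a share of the whole range. The log2 ratio of Irf7 in replicate 2 was -0.42, and the nearest of the others was -1.32. The log2 ratio of Gbp2 in replicate 3 was -1.91, and the nearest was -1.61, and its whole range of 0.34 was the narrowest of the 27 members. Chance flags about 1 in 20 groups. Gbp2 without replicate 3 was -1.58.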

How the results depend on the processing

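Of the 593 member ratios recomputed under 22 alternatives, 570 kept their direction and their side of the threshold, 8 became calls, 1 lost its call and 14 changed sign. The lost call was Gbp2 without replicate 2. The 14 were all of ratios that did not pass: with median centring Usp18 had 0.14, Bst2 0.13, B2m 0.34 and RT1-A3 0.085; with array weights B2m had 0.034; and with 1 replicate left out Ifit1 ran from -0.82 to 0.21 (above 0 without replicate 1), Tlr3 from -0.49 to 0.093, Ifit3 from -1.22 to 0.089, Psmb9 from -0.46 to 0.19, B2m from -0.23 to 0.085 and RT1-A3 from -0.28 to 0.012 (all above 0 without replicate 3), Usp18 from -0.16 to 0.076 (above 0 without replicate 4) and Bst2 from -0.43 to 0.11 (above 0 without replicates 3 and 4). The effector median stayed between -0.74 and -0.41 and that of the regulators between -0.53 and -0.18, whereas that of class I ran from -0.27 to 0.025.

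Without the replicate block, which treats the channels as unpaired, 3482 names were called (1739 higher, 1743 lower) in place of 2110 (1031 and 1079), as were 2 regulators (Irf1 and Stat2), 2 effectors (Gbp2 and Isg15), 1 class I gene (Psmb10), 2 loading genes and 1 other class I gene; the cause was not tested. With 1 replicate left out, 561 to 1065 names, 0 to 1 effectors, 1 to 3 other interferon-induced genes (in place of 6) and 0 loading genes were called, from fewer samples. Median centring gave 1462 higher and 992 lower names, or 59.6% higher in place of 48.9%, with a median of all names of 0.079 in place of 0.012. Regulators had 1 call in place of 0 without background subtraction and with the mean over probes (Irf7) and with median centring and array weights (Irf1). Loading genes had 0 calls in place of 1 with median centring, processed signals, the deposited ratio and the value table, and other class I genes had 1 in place of 0 with a trended robust variance. Aquantile normalization left all ratios as they were, and 0 member probes were saturated.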

Other observations

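Of the 6 listed genes without a probe of their own name, 5 could be reached through an older name or an accession in the RefSeq table; they were taken up after their values were seen. Oasl (Oasl1 on the array), a relative of the 2-5A synthetases, had log2 ratios of -2.10, -1.70, -2.46 and -2.65 (mean -2.23 ± 0.42, SD, n = 4; limma adjusted p = 0.00616). Its signals were 8.97, 8.60, 9.10 and 8.92 in mucosa cells, against 11.07, 10.31, 11.55 and 11.57 in bulb cells, and the call held in all 21 alternatives in which its probe was present under that name. Ifih1 (RGD1560496 on the array), the RNA sensor MDA5, had -1.27, -0.79, -4.24 and -0.60 (mean -1.72 ± 1.70; limma adjusted p = 0.158). Ifi44l (LOC310968 on the array) was not well above background on any mucosa array and was on 3 bulb arrays. Its log2 ratios were -0.045, -1.56, -1.65 and -2.06 (limma adjusted p = 0.0857, and 0.0202 to 0.239 over 20 alternatives, of which it passed in 6). The mucosa signals and the bulb signal of replicate 1 were dim, so no least fold is given. Rsad2 (Best5 on the array), the enzyme viperin, was likewise dim on every mucosa array and had ratios of 0.017, -0.26, 0.028 and -1.30 (mean -0.38 ± 0.63; limma adjusted p = 0.466). Oas1a (Oas1 on the array) had 0.27 ± 0.38 (limma adjusted p = 0.509). The accession of RT1-A1 is listed only on a probe named RT1-Cl that also lists RT1-A2 and RT1-CE5, so no value of it is given.

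The RT1-CE genes, the class I heavy chains of the RT1-CE region, did not pass. Of 9 such names tested, RT1-CE5 included, 9 had mean ratios below 0, from -0.71 to -0.11 (49.1% of all names were below 0), 8 had ratios below 0 on all 4 arrays (15.7% of all names) and 8 had signals without overlap (20.8% of all names), while 0 passed (lowest limma adjusted p = 0.142). Their probes may bind each other's transcripts, so they are not independent measurements.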
